A study of Homo sapiens with 16 samples.

Results

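The 461 most abundant nuclear transcripts of HEK293 cells, an established line of human embryonic kidney cells, were described for what happened to their RNA after depletion of topoisomerase I (Top1). They were selected on their level in control cells, as the nuclear transcripts with a normalized read count of at least 5000 in both libraries of control cells, and they make up 461 of 19320 nuclear transcripts listed by the authors. Nuclear here means listed on any chromosome but the mitochondrial one, and does not refer to RNA located in the nucleus. Total RNA was sequenced after removal of ribosomal RNA from cells that had received a negative control RNA (scramble, 2 libraries) or a small interfering RNA against Top1 (Top1 KD, 2 libraries), and both groups share the cell line and the transfection procedure. Per the series' design text, the 2 libraries of a group come from separate passages, and which of the Top1 siRNAs these libraries received is not given in the sources used here. A normalized read count is the number of reads on a transcript divided by a size factor of its library, with no correction for length. Ranks, ratios and classes of level below compare transcripts by this count, so length enters them. Only levels given per kb take the span of the gene into account. The comparison group, called mid-level transcripts below, holds the 6012 nuclear transcripts with 500 to 5000 normalized counts in both scramble libraries.

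Top1 nicks and reseals DNA to release the supercoils that RNA polymerase leaves behind it and pushes ahead of it. Negative supercoils behind the polymerase favour R-loops, in which the nascent RNA pairs with its template strand and leaves the other strand single. Heavy transcription, long transcription units and active neighbours all load DNA with supercoils. The study compared its R-loop maps with expression level, gene length and the distance to other genes. The abundant RNAs of a dividing cell line mostly come from housekeeping genes for translation, protein folding, energy metabolism and the cytoskeleton, many of them short. Of the 19333 transcript identifiers in the table, 0 could be tied to a gene name with the reference tables used here. Members are therefore given by position (hg19, the build in the submitters' processing notes), no role is assigned to any of them, and whether the TOP1 transcript itself fell was not checked here. The R-loop and RNA polymerase II maps of the study were not analysed here.

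The libraries held 15258182 and 18366226 reads on listed transcripts in scramble cells and 14681774 and 16503586 in Top1 KD cells. Abundant transcripts are the best measured part of the table, since the member with the fewest reads in a library still had between 2440 and 5686 of them, a counting error of 1.33% to 2.02%. Replicates differed by more than that. The median size of the difference between replicates of a member was 0.075 on the log2 scale in scramble cells and 0.10 in Top1 KD cells, against 0.11 and 0.15 for mid-level transcripts. In all, 75.9% of the members were within 1.1-fold between the scramble replicates. A gap of at least 1.5-fold between replicates was found for 2 members in scramble cells and for 4 in Top1 KD cells.

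The scramble values chose the members and also enter every change described here, so counts and medians over the members are descriptions, without a test. For the values nearest the limit, a transcript on chromosome 19 (chr19:10225693-10230578) was just inside, with 5287 and 5003 normalized counts in scramble cells and 5722 and 6386 in Top1 KD cells. A second one just inside (chr7:11013499-11209117) had 5011 and 5458 in scramble cells and 4714 and 5354 in Top1 KD cells. Just outside, chr5:126112840-126172712 had 4996 and 5039 in scramble cells and 4940 and 5262 in Top1 KD cells, while chr5:76986991-77072185 had 5041 and 4995 in scramble cells and 3254 and 3558 in Top1 KD cells.

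Abundant transcripts lay slightly lower in Top1 KD cells as a group, and few of them changed by much. Their median log2 fold change (Top1 KD against scramble) was -0.13, with quartiles of -0.31 and 0.048, against 0.0040 for mid-level transcripts and 0.0022 for all nuclear transcripts tested. The log2 fold change was below 0 for 321 of 461 members (69.6%), compared with 49.5% of mid-level transcripts and 49.8% of all nuclear transcripts tested. The middle 90% of members lay between -0.59 and 0.30. A change of less than 1.5-fold was found for 93.7% of the members, 91.5% of mid-level transcripts and 77.0% of all nuclear transcripts tested. Because this is bulk RNA from each culture, fewer cells making an RNA and less RNA per cell cannot be told apart. Normalized counts are also relative to the other transcripts of a library, so a change in the absolute amount of an RNA cannot be read from them.

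Differential expression was called with limma at an adjusted p under 0.05 (Benjamini-Hochberg, over 13086 transcripts tested) and a change of at least 1.5-fold. By this rule 29 of 461 members were called (6.29%, background 8.15% of all transcripts tested). Of these, 24 were lower in Top1 KD cells (5.21% of the members, background 4.26%) and 5 were higher (1.08%, background 3.88%). Among mid-level transcripts 5.07% were called lower and 3.36% higher. The share of members called lower was thus near the background, and a larger gap appeared only among changes under 1.5-fold. At an adjusted p under 0.05 with no fold limit, 123 members were lower (26.7%, background 7.63%) and 28 were higher (6.07%, background 7.17%), compared with 10.5% and 9.78% of mid-level transcripts. The smallest changes that passed were -0.27 and 0.27 on the log2 scale. The closer replicates of the members, given above, go with these counts, and their part in them was not tested. The counts at adjusted p alone moved with single libraries. Without scramble replicate 1 they were 41 lower (8.89%, background 1.19%) and 9 higher (1.95%, background 1.41%). Without scramble replicate 2 they were 46 lower (9.98%, background 1.66%) and 11 higher (2.39%, background 1.85%). Without Top1 KD replicate 1 they were 66 lower (14.3%, background 3.66%) and 18 higher (3.9%, background 2.43%). The share of members higher was thus below the background with all 4 libraries and above it in these 3 fits. Without Top1 KD replicate 2 it was below the background again. The share of members lower was above the background in each of these fits. The 24 members called lower became 42 without Top1 KD replicate 2. Read without the model, both Top1 KD libraries were below both scramble libraries for 246 members (53.4%, background 29%) and above both for 90 members (19.5%, background 28.8%). The members differed from mid-level transcripts in these shares by description only, because genes are not replicates and 2 libraries against 2 cannot give an exact permutation p below 0.33. P-values of single transcripts set the difference between the groups against the spread of replicates within them. That spread was moderated by a mean-variance trend over all transcripts tested.

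**Figure D1:**
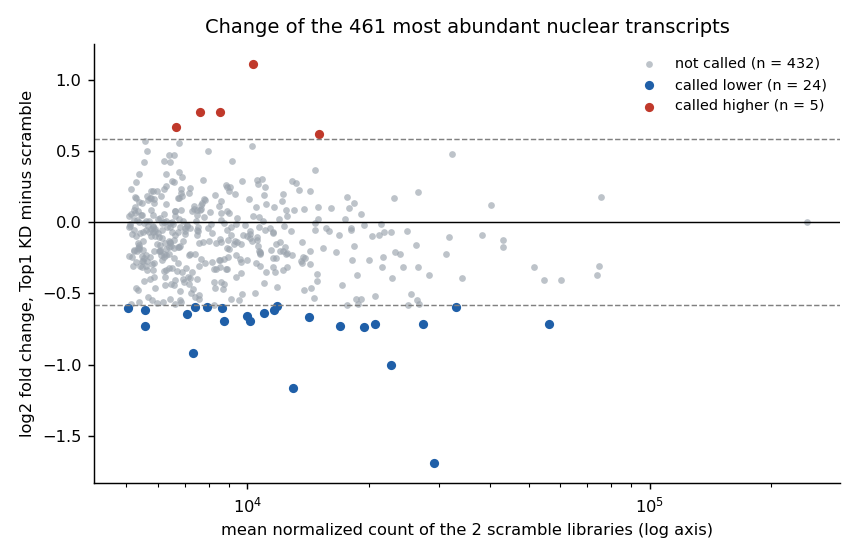
Log2 fold change (Top1 KD minus scramble) of each of the 461 members against the mean normalized count of the 2 scramble libraries, on a log axis, with dashed lines at 1.5-fold. The 24 members called lower and the 5 called higher are coloured, and points lie lower on average toward the right.

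The lower median was seen with every pairing of libraries. Over the members it was -0.15 and -0.15 for Top1 KD replicate 1 against scramble replicates 1 and 2, and -0.091 and -0.089 for Top1 KD replicate 2 against the same libraries. Between the scramble replicates it was -0.010, and between the Top1 KD replicates it was 0.058, with replicate 1 lower. The Top1 KD replicates thus differed between themselves by less than either differed from a scramble library. For mid-level transcripts none of the 4 pairings between groups had a median beyond -0.0074 or 0.0068.

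The members held a smaller share of the normalized counts of nuclear transcripts in both Top1 KD libraries. They took 32.6% and 32.2% of all nuclear normalized counts in scramble cells and 29.4% and 30.7% after Top1 depletion, a mean of 32.4% ± 0.219 (SD, n = 2) against 30.1% ± 0.908 (SD, n = 2). The groups did not overlap, and the difference was -2.33 percentage points. The scramble values chose the members, which can by itself raise their share in those libraries, so this difference is a description. An exact two-sided permutation p was 0.33, the smallest that this design allows, and it decides nothing here. A share does not depend on the scaling of a library. Mid-level transcripts took 58.1% and 58.4% in scramble cells and 60.7% and 59.5% in Top1 KD cells. The 40 members with at least 20000 normalized counts in both scramble libraries went from 9.82% and 9.69% to 8.32% and 8.86%, about -1.17 percentage points on average. A single transcript did not set these values, since without the most abundant one the members' shares were 31.0% and 30.8% against 27.9% and 29.2%.

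The change was graded with level where both scramble libraries placed the transcripts, and less evenly under some other placements given below. With transcripts placed by both scramble libraries, the median log2 fold change was 0.028 from 500 to 1000 normalized counts (n = 2002), 0.0017 from 1000 to 2000 (n = 1957) and -0.026 from 2000 to 5000 (n = 1436). Within the members it was -0.091 from 5000 to 10000 (n = 294), -0.14 from 10000 to 20000 (n = 103) and -0.28 from 20000 (n = 40), where 85% of transcripts were below 0. The quartiles of the top class were -0.41 and -0.092, both below 0, whereas in each of the other classes they lay on either side of 0. Without Top1 KD replicate 1 the median of the class from 10000 to 20000 was -0.087, and that of the top class was -0.23.

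Choosing transcripts for a high value in the libraries they are then compared with can pull a change downwards, so the choice and the measurement were also separated. When 1 scramble library placed the transcripts and the change was taken from the other, the median of the top class was -0.28 (n = 45) and -0.23 (n = 41), and all transcripts of at least 5000 had medians of -0.12 (n = 497) and -0.12 (n = 487). Placing transcripts by the Top1 KD libraries, which pulls the other way, gave -0.0064 from 5000 to 10000 (n = 287), -0.053 from 10000 to 20000 (n = 90) and -0.14 from 20000 (n = 28). Below 5000 the medians of that placement were 0.029, 0.033 and 0.039 from the lowest class up, so they did not fall with level. Scramble replicate 1 alone gave -0.11 from 5000 to 10000 and -0.10 from 10000 to 20000. With scramble replicate 2 alone, and with the mean of all 4 libraries, the median fell at each class. With at least 5000 in both Top1 KD libraries as the rule, 436 transcripts had a median of -0.038. Of these, 16 were called lower (background 4.26% of all transcripts tested) and 18 higher (background 3.88%). By the mean of all 4 libraries the 484 transcripts from 5000 had a median of -0.075, and the top class had -0.23 (n = 37). Of the 484, 21 were called lower (4.34%) and 11 higher (2.27%), against the same background. The calls come from the fit to all 4 libraries in every placement, so unlike the medians they were not separated from the choice. Placed by scramble replicate 1 alone, 26 of 497 were called lower and 6 higher. Placed by scramble replicate 2 alone, 27 of 487 were called lower and 8 higher, and both placements include all 461 members. Lower calls outnumbered higher ones in 4 of the 5 placements, the exception being that by the Top1 KD libraries. The median of the highest class was below 0 in all 5.

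**Figure D2:**
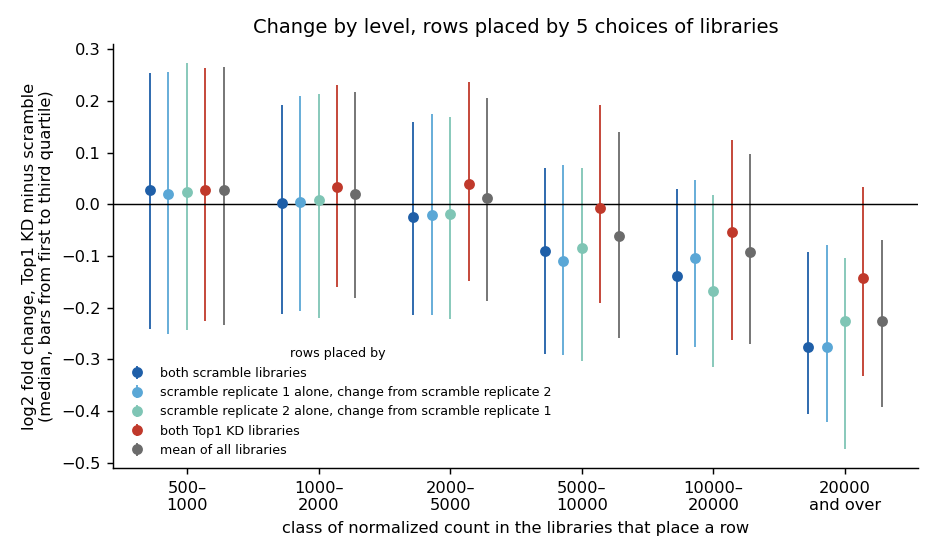
Median log2 fold change (Top1 KD minus scramble; bars from the first to the third quartile) in 6 classes of normalized count, with transcripts placed in the classes by 5 choices of libraries. Medians of the highest class run from -0.28 to -0.14, and those of the lowest class lie between 0.021 and 0.029.

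The highest levels show how differently single members behaved. The most abundant transcript (chr6:74225473-74230741, 5.27 kb) had 258163 and 232689 normalized counts in scramble cells and 246290 and 245571 in Top1 KD cells, with a log2 fold change of 0.0049 (limma adjusted p = 0.980). Its scramble mean was 3.24 times that of the second (chr17:79476997-79479900, 2.90 kb), which had 82800 and 68896 in scramble cells and 78987 and 92022 in Top1 KD cells, with a log2 fold change of 0.17 (limma adjusted p = 0.287). In both, the groups overlapped. The next 3 all fell. The third (chr5:170814652-170838141, 23.5 kb) went from 74200 and 75008 to 57788 and 62942, a log2 fold change of -0.31 ± 0.087 (SE; limma adjusted p = 0.0264). The fourth (chrX:71491892-71497150, 5.26 kb) went from 66203 and 81312 to 57161 and 56127, a log2 fold change of -0.37 (limma adjusted p = 0.0195). The fifth (chr14:102547075-102553528, 6.45 kb) went from 60439 and 59949 to 40093 and 51468, a log2 fold change of -0.41 (limma adjusted p = 0.0169). In each of these 3 the groups were apart, although no change reached 1.5-fold.

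The 4 largest falls among the members all lie on chromosome X. The largest was that of ENST00000395402 (chrX:84498997-84528366, 29.4 kb), with 28002 and 30331 normalized counts in scramble cells and 8410 and 9653 in Top1 KD cells. Its log2 fold change was -1.69 ± 0.093 (SE; limma adjusted p = 6.97e-08), a level 3.23-fold lower, and 0 other transcripts of the table start within 100 kb of its start. ENST00000218516 (chrX:100652791-100662913, 10.1 kb) had 13276 and 12658 in scramble cells and 5646 and 5937 in Top1 KD cells, with a log2 fold change of -1.16 ± 0.088 (SE; limma adjusted p = 3.72e-06). Replicates were close in both transcripts and the groups were far apart. The third (chrX:107975712-107979651, 3.94 kb) went from 21167 and 24196 to 10992 and 11580, a log2 fold change of -1.0 ± 0.091 (SE; limma adjusted p = 1.34e-05). The fourth (chrX:53111549-53117722, 6.17 kb) went from 7170 and 7468 to 3728 and 4031, a log2 fold change of -0.92 ± 0.094 (SE; limma adjusted p = 5.33e-05). The fifth fall, on chromosome 2 (chr2:3622795-3628509, 5.71 kb), went from 19612 and 19411 to 11077 and 12409, a log2 fold change of -0.73 ± 0.089 (SE; limma adjusted p = 0.000111). The other 19 members called lower fell by 1.5-fold to 1.66-fold, so the falls beyond 2-fold came down to 3 transcripts.

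The 5 rises were smaller in number and did not share a chromosome. ENST00000367142 (chr1:205681947-205719404, 37.5 kb), whose span overlaps another transcript of the table, had 10062 and 10631 normalized counts in scramble cells and 21741 and 22978 in Top1 KD cells. It rose by 2.16-fold, with a log2 fold change of 1.11 ± 0.086 (SE; limma adjusted p = 3.72e-06), and was the only member to rise at least 2-fold. ENST00000203407 (chr3:48636436-48647470, 11 kb) had 8049 and 7227 in scramble cells and 12788 and 13325 in Top1 KD cells, with a log2 fold change of 0.78 ± 0.091 (SE; limma adjusted p = 9.23e-05). The third rise (chr12:120634489-120639014, 4.53 kb) went from 8394 and 8651 to 13132 and 16152, a log2 fold change of 0.77 ± 0.10 (SE; limma adjusted p = 0.000208). The fourth (chr7:69064319-70258054) spans 1.19 Mb and lies 339 kb from the nearest other transcript, and it went from 6903 and 6396 to 11709 and 9564, a log2 fold change of 0.67 ± 0.10 (SE; limma adjusted p = 0.000697). The fifth (chr11:18415935-18429972, 14 kb) went from 13350 and 16847 to 20332 and 26190, a log2 fold change of 0.62 ± 0.12 (SE; limma adjusted p = 0.00333). Its replicates were the widest apart of the 10 transcripts, and without scramble replicate 1 it missed the threshold (limma adjusted p = 0.109), as it did without Top1 KD replicate 2 (limma adjusted p = 0.0545). The fourth, without Top1 KD replicate 1, had a log2 fold change of 0.53, under 1.5-fold (limma adjusted p = 0.0215).

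**Figure D3:**
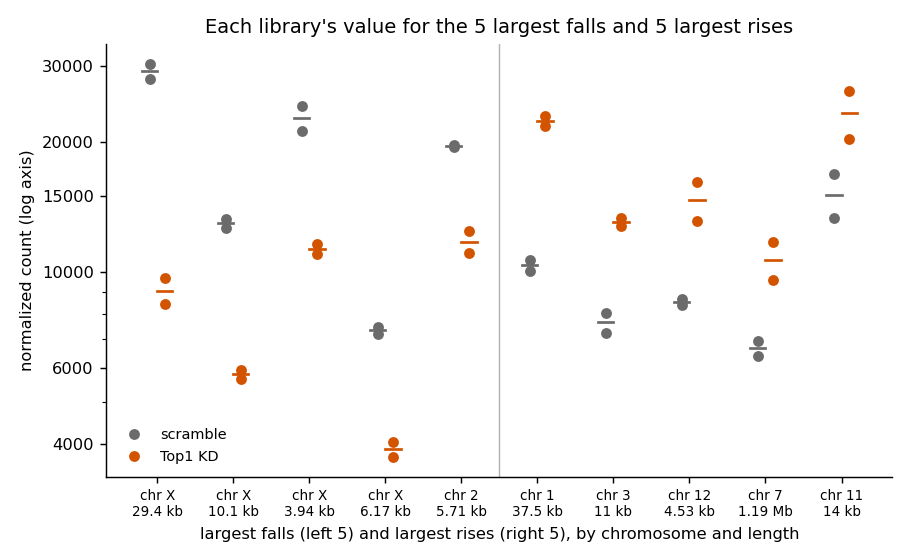
Normalized count (log axis) in each of the 4 libraries for the 5 largest falls and the 5 largest rises among the members called, labelled by chromosome and length; points are libraries and bars are group means. In all 10 the groups do not overlap, and the 4 largest falls are on chromosome X.

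Wide gaps between replicates were rare, and members with them were found both among the called and among the others. For a short member in a crowded region of chromosome 6 (chr6:31795512-31798031, 2.52 kb, chosen after its values were seen), 24865 and 12864 normalized counts were found in scramble cells and 16598 and 8650 in Top1 KD cells. The groups overlapped, and the log2 fold change of -0.58 (limma adjusted p = 0.139) was under the fold limit as well. A member on chromosome 1 (chr1:149856010-149858232, 2.22 kb, also chosen after its values were seen), with 8588 and 15083 in scramble cells and 6391 and 8959 in Top1 KD cells, was the only one of the 29 called whose groups overlapped (limma adjusted p = 0.0478).

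The 30 members on chromosome X included the largest falls and many smaller ones. They had a median log2 fold change of -0.32, and 17 of them (56.7%, background 7.63%) were lower at an adjusted p under 0.05, compared with -0.12 and 24.6% for the 431 members on other chromosomes. Chromosome X also held 5 of the 24 members called lower and 0 of the 5 called higher. Mid-level transcripts of chromosome X did not share this: their median was -0.019 (n = 189), and 12.2% were lower at an adjusted p under 0.05. Without the 4 largest falls the other 26 members on X had a median of -0.26, with 13 lower. The shift was present in both Top1 KD libraries, with medians of -0.37 in replicate 1 and -0.29 in replicate 2. It was present at both lengths as well, with -0.32 under 20 kb (n = 17, against -0.15 on other chromosomes) and -0.32 from 20 kb (n = 13, against -0.095). Fewer than these 17 transcripts passed whichever library was left out, while the median stayed between -0.37 and -0.28. The background of 7.63% belongs to the fit with all libraries. The chromosome was singled out after its values were seen, and the difference was not tested. Among the other chromosomes with at least 15 members, medians ran from -0.21 on chromosome 3 (n = 29) to -0.020 on chromosome 14 (n = 15). With fewer members, chromosome 4 had a median close to that of X, at -0.31 (n = 9, 4 lower at an adjusted p under 0.05), and chromosomes 16 and 20 had -0.25 and -0.25 (n = 6 each, 3 lower each). Medians above 0 were found only on chromosomes 13 (0.049, n = 8) and 21 (0.016, n = 6). Chromosome 19, where genes are dense, had -0.060 (n = 22), above the -0.16 of its mid-level transcripts (n = 241).

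Abundant transcripts came from shorter genes. The length from start to end in the table had a median of 27.0 kb over the members (quartiles 9.31 and 56.1 kb), 43.0 kb over mid-level transcripts (18.4 and 97.3 kb) and 31.5 kb over all nuclear transcripts tested. Spans under 5 kb made up 12.2% of the members and 5.24% of mid-level transcripts, and spans of at least 80 kb made up 16.9% and 30.8%. Length was lower with each step of level within the members, from a median of 34.8 kb at 5000 to 10000 counts to 20.1 kb at 10000 to 20000 and 8.44 kb from 20000. Below the members it ran the other way, from 34.6 kb at 500 to 1000 counts to 49.7 kb at 2000 to 5000. Per kb of span, the scramble level had a median of 338 normalized counts for the members and 31.6 for mid-level transcripts. A span includes introns, so this density is not a level per kb of mature RNA.

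The members' lengths ran from 1.05 kb to 1.5 Mb. The longest (chr3:59735036-61237124) had 10150 and 10351 normalized counts in scramble cells and 10151 and 8623 in Top1 KD cells, with a log2 fold change of -0.13 (limma adjusted p = 0.389). The shortest (chr2:85132749-85133795) had 6864 and 6869 in scramble cells and 7119 and 10239 in Top1 KD cells, with a log2 fold change of 0.31 (limma adjusted p = 0.114). Neither passed the test. Of the 10 members of at least 400 kb, the fourth rise above (1.19 Mb) was the only one called. A second transcript of more than 1 Mb (chr13:93879095-95059655, chosen after its values were seen) went from 9027 and 9231 to 12158 and 12390, a log2 fold change of 0.43 (limma adjusted p = 0.00403). These 10 ran from -0.46 to 0.67 with a median of 0.10, against 0.25 for the 191 mid-level transcripts of that length.

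**Figure D4:**
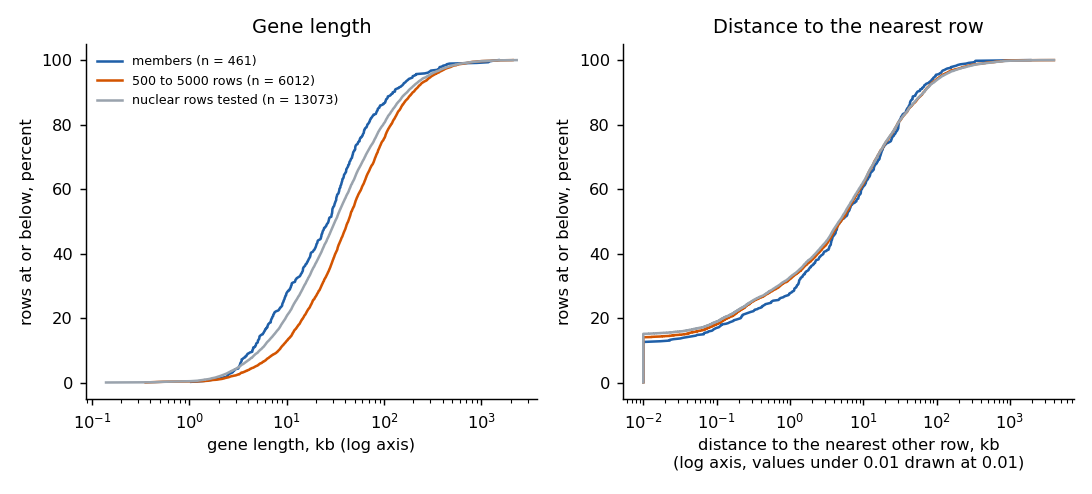
Cumulative share of transcripts, in percent, by gene length (left) and by distance to the nearest other transcript of the table (right), both in kb on log axes, for the members, mid-level transcripts and all nuclear transcripts tested. The length curve of the members lies to the left of the others, with medians of 27.0, 43.0 and 31.5 kb, whereas the distance curves cross, with medians of 4.99, 4.95 and 4.68 kb.

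The neighbourhoods of abundant transcripts were about as crowded as those of the others. The nearest other transcript of the table, expressed or not, was a median of 4.99 kb away for the members (quartiles 0.566 and 23.9 kb), 4.95 kb for mid-level transcripts and 4.68 kb for all nuclear transcripts tested. A median of 2 other transcripts started within 100 kb in all of these groups, and 17, 17 and 19 started within 1 Mb. Spans overlapped another transcript for 58 members (12.6%), compared with 13.7% and 14.7%. No other start lay within 100 kb for 86 members (18.7%) and 21.2% of mid-level transcripts. At a given length the members lay somewhat farther from a neighbour, with medians of 2.22 kb under 5 kb, 3.54 kb at 5 to 20 kb, 8.55 kb at 20 to 80 kb and 15.6 kb from 80 kb, against 0.900, 1.89, 4.64 and 12.5 kb for mid-level transcripts. Among the members, 43 (9.33%) had another member starting within 100 kb and 197 (42.7%) had one within 1 Mb. These shares were not set against other transcripts, so whether members cluster with one another was not tested.

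Length went with the change among the members as it did among mid-level transcripts. For the members the median log2 fold change was -0.14 under 5 kb (n = 56), -0.17 at 5 to 20 kb (n = 138), -0.15 at 20 to 80 kb (n = 189) and -0.0086 from 80 kb (n = 78). For mid-level transcripts it was -0.11, -0.072, -0.033 and 0.11 in the same classes. The members had the lower median in each of the 4 classes. Across the 461 members, Spearman's rho of length with the log2 fold change was 0.16, a description over genes that share the same 4 libraries. This gradient came largely from Top1 KD replicate 1. Against the mean of the scramble libraries, that replicate had medians of -0.19, -0.21, -0.17 and 0.048 in the 4 classes, while replicate 2 had -0.045, -0.097, -0.12 and -0.028. The rho of length with the difference between the Top1 KD replicates (replicate 2 minus 1) was -0.37, larger in size than that with the change itself. The gap between members of at least 80 kb and those under 20 kb was 0.16, and it was 0.065 without Top1 KD replicate 1 and 0.26 without Top1 KD replicate 2. What made the Top1 KD replicates differ by length was not tested.

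**Figure D5:**
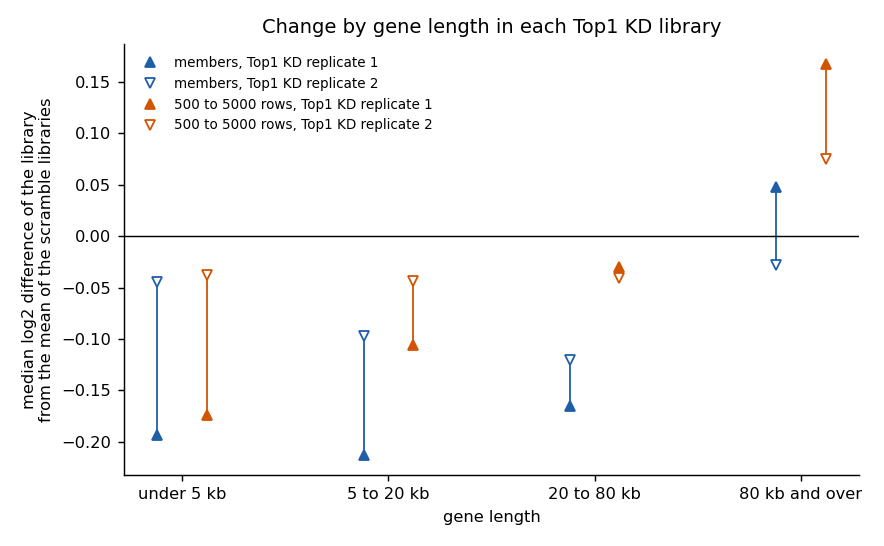
Median log2 difference of each Top1 KD library from the mean of the scramble libraries in 4 classes of gene length, for the members and for mid-level transcripts (the 500 to 5000 group). From the shortest to the longest class of members, replicate 1 goes from -0.19 to 0.048 and replicate 2 from -0.045 to -0.028, and the libraries differ most in the shortest class.

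Level and length were also crossed, a split made after the values were seen. Under 20 kb the median log2 fold change went from -0.057 at 500 to 1000 counts to -0.10 at 1000 to 2000, -0.10 at 2000 to 5000, -0.14 at 5000 to 10000 (n = 97) and -0.21 from 10000 (n = 85). From 80 kb it went from 0.16 to 0.12, 0.087, 0.022 (n = 63) and -0.13 (n = 13). With transcripts placed by both scramble libraries, the median was thus lower at the highest levels within both short and long genes.

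The most crowded members had lower medians than the most isolated ones. Members that overlapped another transcript had a median log2 fold change of -0.22 (n = 58), those less than 5 kb from one -0.12 (n = 174), those 5 to 50 kb away -0.13 (n = 177) and those at least 50 kb away -0.030 (n = 52). For mid-level transcripts these medians were -0.022, -0.020, 0.019 and 0.057. Reads from overlapping transcripts may not have been told apart by the counting, so values of the overlapping members are uncertain to that extent. Members with at least 5 other starts within 100 kb had a median of -0.17 (n = 112), and those with none had -0.033 (n = 86). The former were also shorter, with a median of 10.5 kb against 77.1 kb. Mid-level transcripts differed in the same direction, with medians of -0.063 (n = 1174) and 0.082 (n = 1274). Spearman's rho of the number of starts within 100 kb with the log2 fold change was -0.17 across the 461 members, about the size of that of length. That of the distance was 0.13, again as descriptions over genes that share the same libraries. For mid-level transcripts these were -0.17 and 0.10. The members' rho of the number of starts with the difference between the Top1 KD replicates (replicate 2 minus 1) was 0.19, larger in size than that with the change. The gap between members at least 50 kb and under 5 kb from another transcript was 0.11, and 0.059 without Top1 KD replicate 1. By the arrangement of the nearest tested neighbour, members that were divergent from it had a median of -0.21 (n = 123). Convergent members had -0.14 (n = 124) and those on the same strand -0.062 (n = 214). Mid-level transcripts had the same order, with -0.070, 0.019 and 0.043. The neighbours of the divergent members had a median of -0.12 themselves, and 2 of these neighbours were members.

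Long genes far from any other were looked at separately, because the study set R-loop changes against both length and distance. The 18 members of at least 80 kb that lay at least 50 kb from another transcript had a median log2 fold change of 0.12 (range -0.40 to 0.67), with 4 higher (background 7.17% of all transcripts tested) and 3 lower (background 7.63%) at an adjusted p under 0.05. The 451 mid-level transcripts of that kind had a median of 0.16, with 90 higher and 20 lower. The 349 members that were shorter and closer to a neighbour had a median of -0.16, with 74.5% below 0. The member farthest from any other transcript (chr6:93949738-94129244, 1896 kb away) had 8555 and 9419 in scramble cells and 7830 and 7936 in Top1 KD cells, with a log2 fold change of -0.19 (limma adjusted p = 0.182). Both Top1 KD libraries were below both scramble libraries for it, but the change did not pass the test.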

How the data were processed

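RNA-seq of 2 scramble and 2 Top1 KD libraries was used. The DRIP, DRIPc and RNA polymerase II samples were not analysed here. Per the study's methods and the submitters' processing notes, single-end reads were trimmed (fastq-mcf), aligned to hg19 (TopHat2 2.0.5), restricted to unique alignments and counted (HTSeq). The annotation release is not given in the sources used here. What the authors deposited for each library is a signal: the count of a transcript over the DESeq2 size factor of that library, without regard to length. Their table also holds a comparison of the groups that was not used here, of which the authors deposited log2 fold changes with errors, test statistics (a score with no fixed range), p-values and a call.

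In each library 100% of the values were whole multiples of 1 read (tolerance 0.05 reads), so reads were recovered by rounding. Because the table holds normalized counts, limma 3.58.1 in R 4.3.3 was fitted on log2(normalized count + 1) with a mean-variance trend to the 13086 transcripts that had 10 normalized counts or more in 2 libraries or more. Fold changes are on that scale. All 461 members passed this filter. The call was an adjusted p under 0.05 (Benjamini-Hochberg) with a change of at least 1.5-fold. The method was tested on simulated data.

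Length is end minus start plus 1 in the deposited table, and neighbours are all other transcripts listed on the chromosome. Members were named as the 5 highest, the 5 largest rises and falls called without overlap, the 2 nearest the limit on each side, and the longest, shortest and most isolated. The members, lists and classes were chosen with earlier results of these data known. Gene lists by name could not be used. Alternatives changed the test (edgeR 4.0.16 and DESeq2 1.42.0 on recovered reads), scaling, filter, pseudocount, thresholds, choice of members and libraries. Fits without 1 library assume that the lone sample varies like the others. The splits by chromosome, by level with length, by isolation and by single library were added after values were seen. Counting errors cover sampling of reads only.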

Additional observations from a re-analysis of the deposited data

How the results depend on the processing

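The limits of these results are 2 libraries a group, a Top1 KD pair that differs by gene length, and members chosen by the values they are compared with. With a limit of 3000 normalized counts, 51 of 1099 transcripts were called lower (4.64%) and 20 higher (1.82%), with a median log2 fold change of -0.0746. With a limit of 10000, 12 of 149 were lower (8.05%) and 2 higher (1.34%), with a median of -0.18. The background is 4.26% lower and 3.88% higher, for the 1.5-fold rule in the limma fit with all 4 libraries. For other rules and fits below, the share over all transcripts tested is given only where stated. Counts without it show only how the calls of members moved. Choosing by the mean of all libraries gave 11 higher (median -0.0746), and choosing by both Top1 KD libraries gave a median of -0.0378. No fold limit gave 123 lower (background 7.63%) and 28 higher (background 7.17%), a 2-fold limit 3 and 1, and Bonferroni adjustment 12 and 3. The median length of the members was 36.1 kb at a limit of 3000, 16.5 kb at 10000 and 31.8 kb without genes under 5 kb, while that of mid-level transcripts was 47.4 kb from 1000 counts and 45.7 kb without genes under 5 kb. The median distance of the members was 3.75 kb at a limit of 10000 and 7.73 kb to the nearest expressed transcript, and that of mid-level transcripts was 5.56 kb from 1000 counts and 7.07 kb to the nearest expressed transcript. Leaving out each library in turn gave 20 to 42 members lower, 5 to 7 higher and a median of -0.1501 to -0.0943. The 42 came without Top1 KD replicate 2 and shared 20 with the 24. In the same fits the difference in share was -2.97 to -1.68 percentage points, the difference by length 0.0647 to 0.2585 and that by distance 0.0591 to 0.1482. edgeR called 26 lower and 5 higher, DESeq2 22 and 5, and library-size scaling 18 and 6, which moved the median of all transcripts tested by 0.02. Over 110 values of the 10 largest changes under alternatives, 0 changed sign and 3 fell below the threshold, as given beside them. The replicate block called 24 lower and 5 higher, so it changed neither count. The labels name no shared batch for same-numbered libraries and there are only 2 pairs, so the samples were taken to share only a number. Deviations of same-numbered libraries correlated at -0.01 over all transcripts tested and at 0.22 over the members.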
